A study of Rattus norvegicus with 38 samples.

Results

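Hearts of Dark Agouti (DA) rats that had been placed in the abdomen of Brown Norway (BN) rats were compared with the hearts the BN recipients were born with. The comparison rests on 10 of the 18 heart arrays of a series of 38 samples: 5 transplanted hearts (allografts) and the 5 native hearts of the same recipients, numbered 3 to 7 in the sample titles, so that each graft has a native heart with the same number. All were taken on post-transplant day 6. Tissue was a section through both ventricles and the septum, and RNA of each heart was read on its own array, an oligonucleotide array of the RAE230A design. The strains come from the study's methods, since the array labels name only the graft and the native heart of an allograft or isograft animal.

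Graft and native heart of an animal shared the same blood, and with it the same circulating leukocytes, hormones and metabolites. Everything else that set the organs apart came as a single package. The graft was of the DA strain, had been flushed, cut from its nerves, given an atrial septal defect and disrupted tricuspid leaflets, and joined to the abdominal aorta and vena cava. The native heart was of the BN strain and was not operated on. Donors were heparinised, and no immunosuppressive drug is named in the sources used here. Per the methods, hearts transplanted across this major antigen mismatch stop pulsating on day 6. Strain, operation, workload and immune attack therefore cannot be told apart within these 10 arrays. For that reason the values of 4 DA hearts grafted into DA rats (isografts), the 4 native hearts of those rats, and the test of the difference between both graft effects stand beside the main values.

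An allograft is attacked when recipient T cells recognise donor histocompatibility molecules, either on donor cells or after processing by recipient antigen-presenting cells. Activated T cells recruit monocytes and macrophages, and interferon-gamma raises the machinery of antigen presentation in the cells of the organ. Cardiac muscle is unusual in that it lives mainly on fatty acids oxidised in its mitochondria and uses muscle isoforms of many metabolic enzymes.

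Signals are given as multiples of the array median, and a series of 5 values always runs in the order of recipients 3, 4, 5, 6 and 7. A fold change is the ratio of the geometric means of 5 allografts and 5 native hearts, tested in limma with a Benjamini-Hochberg adjusted p over 15866 probesets, and SE is the standard error of the log2 difference. Calling a probeset took 3 conditions: an adjusted p no higher than 0.10, a difference of 3-fold or more, and signals not under the array median in 50% or more of the hearts of one of the groups. For lists of genes, each gene is represented by its brightest probeset and counted at an adjusted p of at most 0.10. No 2 arrays held identical values, and the array medians ran from 38.3 to 50.8. Each p-value rests on how much separate rats of a group differed.

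Of 15866 probesets, 1759 (11.1%) were called in allograft against own native heart, 859 higher (5.41%) and 900 lower (5.67%). Named genes among them are 695 that were higher and 697 that were lower. Changes of at least 10-fold were seen for 162 probesets that rose and 135 that fell. The direction was the same in all 5 pairs for 854 of the 859 and for 897 of the 900. The 5 allografts did not overlap with the 5 native hearts for 1731 of the 1759, against 33% of all probesets. The 1759 were called on these same hearts, so such counts, and those within single pairs, follow largely from the call. They are no separate support. Within single pairs, between 633 of the 859 (pair 5, 73.7%) and 779 (pair 3, 90.7%) reached 3-fold higher, and between 728 of the 900 (pair 3) and 795 (pair 4) reached 3-fold lower. Over all 10411 named genes the median log2 difference was -0.04, with 26.1% higher and 27.7% lower at an adjusted p of at most 0.10, which is the background for every list that follows. Without regard to direction, 37.2% of the genes did not overlap between the groups, 18.5% upward and 18.7% downward.

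The same comparison in DA recipients gave 144 called probesets (0.908%), 131 higher (0.826%) and 13 lower (0.0819%). Of these, 79 were also called in the allografts, which is 54.9% of the isograft list and 4.49% of the allograft list, and 74 had the same direction in both. The difference between the graft effects, tested in one model, was called for 1337 probesets (8.43%), 545 in which the allograft effect was the higher (3.44%) and 792 in which it was the lower (4.99%). Among named genes at an adjusted p of at most 0.10, 7.57% were higher and 7.12% lower in isografts, and for 16.4% the effect was higher and for 16.7% lower in the allografts than in the isografts.

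**Figure D1:**
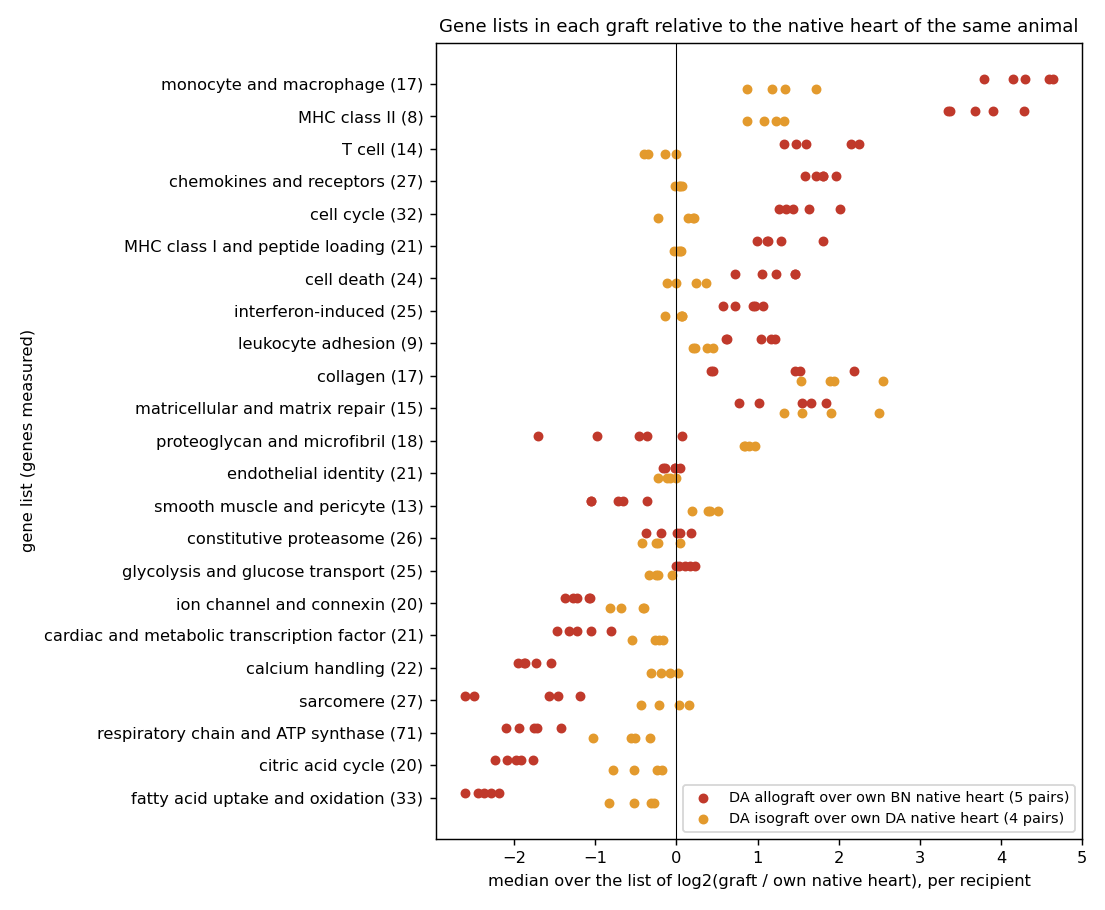
Each point is the median, over the genes of a list, of the log2 ratio of a graft to the native heart of the same animal (x axis), for 23 gene lists with the number of genes measured (y axis), in 5 BN recipients of allografts and 4 DA recipients of isografts. Macrophage and class II genes lie farthest to the right in all 5 allografts and fatty acid oxidation or sarcomere genes farthest to the left, while the 5 allografts are spread widely for collagen and proteoglycan genes.

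Both organs carried the transcripts that define ventricular muscle, at very different levels. Myh6, the fast myosin heavy chain of the adult rat ventricle, stood at 0.538, 1.65, 4.05, 1.12 and 9.52 array medians in the allografts and at 65.4, 52.7, 50.7, 74.2 and 91.7 in the native hearts on its brighter probeset. The weakest native heart exceeded the strongest allograft several times over, and the fall was 31.5-fold (log2 difference -4.98, SE 0.54, adjusted p = 9.08e-07). On its other probeset Myh6 read 0.0247, 0.0245, 0.0321, 0.0192 and 0.0551 in the allografts and 7.99, 6.25, 7.99, 6.99 and 6.57 in the native hearts, a 246-fold fall that rests on allograft signals close to 0 and is 26.2-fold when 0.25 array medians are added to every value. Troponin I, the inhibitory troponin of the heart (Tnni3), fell 9.33-fold, from 97.9, 151, 123, 104 and 169 to 14.2, 24.9, 9.36, 5.45 and 25.1. Troponin T (Tnnt2) and the ventricular regulatory light chain (Myl2) fell less, by 2.63-fold and 2.96-fold, and a second probeset of each, at log2 -0.24 and -0.48, did not pass. In isografts the log2 differences of Myh6 (brighter probeset), Tnni3, Tnnt2 and Myl2 were -0.41, -0.65, -0.27 and -0.19, none past the threshold. Actc1, also a marker of ventricular muscle, had no probeset assigned to it alone.

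In bulk tissue, fewer cells of a type and less RNA per cell cannot be told apart. This holds for every list that follows. Each signal is also relative to an array median to which all cells of the sample contribute. Transcripts of leukocytes rose in the same grafts in which muscle transcripts fell: the 17 monocyte and macrophage genes measured, all higher, summed to 512 to 832 array medians in the allografts and 43.7 to 66.4 in the native hearts, and no defining gene of the list was at 0. Their part in the falls was not tested.

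Of 27 sarcomere genes measured, 22 fell, 1 rose and 4 did not pass, with a median log2 difference of -1.78. Per pair the list median was -1.57, -1.19, -2.60, -2.50 and -1.46, so all 5 grafts moved the same way, with grafts 5 and 6 lowest. The level summed over the list was 321 to 833 in the allografts and 1440 to 2000 in the native hearts. Ldb3, which anchors actinin at the Z disc, fell 24.9-fold, from 38.3, 60.5, 47.0, 31.4 and 50.02 to 2.29, 2.21, 1.48, 0.811 and 2.97 (log2 difference -4.64, SE 0.30, adjusted p = 3.08e-09). Myoz2, a Z-disc protein that binds calcineurin, and Myom2, a protein of the M band, fell 10.8-fold and 10.1-fold, with no overlap between the groups. The difference of graft effects was lower for 20 of the 27 genes and higher for 1, and in isografts 2 rose and 1 fell.

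Calcium handling genes followed the sarcomere: 18 of 22 fell, 1 rose and 3 did not pass, with a median of -1.69. The 4 with the largest change all belong to or regulate the calcium release unit of the sarcoplasmic reticulum. Hrc, the histidine-rich calcium-binding protein of its lumen, fell 24.1-fold, from 26.7, 37.9, 27.3, 26.5 and 31.1 to 1.21, 1.40, 1.24, 0.556 and 2.41. Asph, whose locus also encodes junctin and junctate, fell 19.99-fold and triadin (Trdn) 16.2-fold, and for both every allograft was below every native heart. The ryanodine receptor Ryr2, the release channel itself, was more uneven. It read 0.406, 1.43, 0.0868, 0.166 and 1.51 in the allografts, with grafts 4 and 7 well above the other three, and 6.47, 5.61, 3.78, 3.00 and 3.74 in the native hearts, a fall of 10.4-fold (adjusted p = 0.000248). The pump that refills the store, Atp2a2, fell 5.53-fold on its brightest probeset, whereas its 3 other probesets lay between -0.79 and -0.06 on the log2 scale and none passed.

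Among ion channels and connexins 15 of 20 fell and none rose, with a median of -1.12. The largest fall was in Kcnip2, the subunit that brings the transient outward potassium channel to the membrane. Its brightest probeset read 0.358, 0.850, 1.12, 0.521 and 2.39 in the allografts and 33.4, 57.4, 32.0, 45.5 and 55.0 in the native hearts, a fall of 51.5-fold (log2 difference -5.69, SE 0.39, adjusted p = 5.78e-09). Another probeset fell 83.0-fold, or 30.1-fold with 0.25 array medians added, with a log2 difference of -6.38 that was -4.44 against native DA hearts. The third, at -0.30, did not pass. The pore partner Kcnd3 read 0.0582, 0.0220, 0.0420, 0.0693 and 0.201 against 0.154, 0.557, 0.837, 0.417 and 0.564, low in both groups, a fall of 7.42-fold that its second probeset (-0.85) did not share past the threshold. Kcnj11, the pore of the ATP-sensitive potassium channel, fell on all 3 probesets, with log2 differences of -6.41, -2.39 and -1.77, the first a 85.2-fold fall that is 19.2-fold with 0.25 array medians added. Kcnk3, a background potassium channel, fell 8.52-fold, with 1 of its 2 other probesets at -2.74 and the other at 0.48. The isograft list median was -0.63 with 3 of 20 lower, and 9 of 20 had a lower effect in the allografts.

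Transcription factors of the heart and of its metabolism fell as a group, 16 of 21 with none higher and a median of -1.11. Klf15, a glucocorticoid-responsive factor that promotes lipid and amino acid use, went from 4.75, 7.82, 6.92, 5.99 and 7.79 to 0.304, 0.283, 0.743, 0.490 and 0.492, a 15.1-fold fall (log2 difference -3.92, SE 0.28, adjusted p = 1.1e-08). The retinoid receptor Rxrg fell 6.57-fold. Gata6 fell 4.08-fold on its brightest probeset and not past the threshold on the other (-0.29). Ppargc1a, the coactivator of mitochondrial biogenesis, had weak signals in both groups, at 0.0374, 0.0169, 0.0277, 0.0377 and 0.0360 against 0.0540, 0.186, 0.227, 0.210 and 0.0743, and its 4.32-fold fall (adjusted p = 0.0121) rests on those weak signals. For 13 of the 21 genes the difference of graft effects was lower and for none higher.

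Most genes of mitochondrial energy metabolism fell. In fatty acid uptake and oxidation 30 of 33 genes fell, 2 rose and 1 did not pass, with a median of -2.36, a 5.12-fold fall. All 20 genes of the citric acid cycle and the linked ketone and aspartate enzymes fell, with a median of -2.08. In the respiratory chain and ATP synthase 68 of 71 fell and none rose, with a median of -1.87. Every allograft was below every native heart for 68 of the 71 measured genes, a separation seen downward in 18.7% of all genes. The 3 that did not pass were Cox5a and the non-muscle isoforms Cox6a1 and Cox8a. Summed over the list, respiratory chain signal was 902 to 1610 array medians in the allografts and 3630 to 4790 in the native hearts.

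Genes of fatty acid carriage, activation and beta oxidation all had members among these falls. Fabp3, the fatty acid carrier of muscle cytosol, stood at 10.4, 14.5, 12.9, 4.96 and 16.1 in the allografts and 111, 148, 97.6, 126 and 134 in the native hearts, with graft 6 lowest, a fall of 11.2-fold (log2 difference -3.48, SE 0.28, adjusted p = 4.05e-08). Acsl1, which activates fatty acids to their CoA esters, fell 11.9-fold, from 24.3, 29.3, 19.1, 20.8 and 22.9 to 2.13, 1.91, 1.51, 1.69 and 2.60. Echs1, the enoyl-CoA hydratase of beta oxidation, fell 11.4-fold. The groups lay far apart for all 3 genes. Acsl6, a further acyl-CoA synthetase among the 10 genes that fell most, went from 1.80, 2.05, 1.03, 1.70 and 2.38 to 0.0262, 0.0322, 0.0474, 0.0463 and 0.0521, 43.6-fold lower, or 6.82-fold with 0.25 array medians added. The exceptions were Cpt1a, described with the isoforms, and Angptl4, a secreted inhibitor of lipoprotein lipase. Angptl4 rose 37.1-fold, from 0.226, 0.242, 0.796, 0.555 and 0.210 to 11.4, 12.9, 14.03, 10.6 and 16.2, with an isograft log2 difference of 1.89 (adjusted p = 0.00965).

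In the citric acid cycle list Got1, the cytosolic aspartate aminotransferase, fell 8.69-fold, from 30.5, 47.0, 27.6, 27.0 and 37.4 to 4.20, 5.38, 2.88, 3.20 and 3.89. Oxct1, which activates ketone bodies, fell 7.69-fold, Idh3b, a subunit of the cycle's NAD-dependent isocitrate dehydrogenase, 5.37-fold, and Dld, the lipoamide dehydrogenase shared by several mitochondrial complexes, 4.75-fold. Pdk2, a kinase that turns pyruvate dehydrogenase off, was among the 10 genes that fell most and went from 6.66, 8.94, 6.03, 7.70 and 8.06 to 0.0954, 0.196, 0.106, 0.106 and 0.122 (61.4-fold, or 20.5-fold with 0.25 array medians added), with a second probeset at -3.64. Its log2 difference of -5.94 was -5.07 against native DA hearts. In complex I, Ndufs1, its largest subunit, fell 6.25-fold, from 28.5, 32.7, 27.2, 26.8 and 32.0 to 4.68, 5.45, 4.36, 3.57 and 5.74. Ndufv3 fell 7.06-fold on its brightest probeset, and its other probeset, at -0.17, did not pass.

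Fewer mitochondrial genes passed the test in isografts. In DA recipients 12 of 33 fatty acid genes, 3 of 20 citric acid cycle genes and 25 of 71 respiratory chain genes fell, with 1 fatty acid gene higher, 20, 17 and 46 genes not passed, and medians of -0.58, -0.45 and -0.60. The test of the difference gave a lower effect in the allografts for 28, 19 and 65 genes of the same lists. The element of oestrogen-related receptors, which are known to regulate mitochondrial genes, was searched as TCAAGGTCA on both strands from 250 bases before to 50 after the start of each gene in RefSeq. It was found in 0 of 28 fatty acid genes, 2 of 63 respiratory chain genes (3.17%) and 121 of 27457 genes overall (0.441%).

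Enzymes and carriers that exist as a muscle form and a form of other tissues moved apart. Of 18 such pairs measured, the muscle form fell in 17 and rose in none, while the other form rose in 11 and fell in 3. Not every pair sets muscle against other tissues. The heart form of lactate dehydrogenase, Ldhb, was counted as the muscle form against Ldha, the form of skeletal muscle. Myh6 was set against Myh7, which is also a myosin of heart muscle. The ratio of muscle to other form was lower in every allograft than in every native heart in 17 pairs. Phosphoglycerate mutase gave the widest separation. The muscle form Pgam2 read 0.0599, 0.372, 0.492, 0.0713 and 0.507 in the allografts and 29.9, 37.0, 19.1, 38.3 and 37.0 in the native hearts, a fall of 149.8-fold (log2 difference -7.23, SE 0.54, adjusted p = 1.41e-08), 61.8-fold with 0.25 array medians added. The other form, Pgam1, rose 2.50-fold, from 19.7, 27.5, 24.8, 17.5 and 20.9 to 62.6, 68.3, 41.5, 52.6 and 51.7. No allograft reached the range of the native hearts for either form.

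Transcripts of glucose transporters moved apart in the same way. The insulin-responsive transporter Slc2a4 went from 17.7, 19.9, 13.2, 13.8 and 17.5 to 0.7099, 0.457, 0.988, 0.639 and 1.09, a fall of 21.9-fold, and the constitutive transporter Slc2a1 from 1.58, 0.978, 1.44, 1.54 and 1.47 to 8.56, 15.3, 9.04, 6.31 and 11.8, a rise of 7.06-fold. In isografts Slc2a4 also fell (-1.17 on the log2 scale, adjusted p = 0.0308) while Slc2a1 was at -0.38 (adjusted p = 0.31). Glycogen phosphorylase fell 10.9-fold in its muscle form Pygm and rose 10.5-fold in its liver form Pygl. Fabp5 rose 4.98-fold against the fall of Fabp3, and Tpm3, a cytoskeletal tropomyosin, rose 6.71-fold while Tpm1 fell 1.81-fold on its brightest probeset. Of the 5 other Tpm1 probesets 2 passed, and they ranged from -1.96 to 0.54.

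Further down the glycolytic chain, phosphofructokinase Pfkm fell 11.9-fold and its platelet form Pfkp rose 5.64-fold. Eno3, muscle enolase, fell 35.2-fold (24.8-fold with 0.25 array medians added), from 24.0, 34.7, 14.4, 20.6 and 17.1 to 0.680, 0.731, 0.370, 0.376 and 1.13, and Eno1 rose 1.37-fold. Muscle creatine kinase Ckm fell 17.9-fold, from 78.2, 121, 77.9, 80.5 and 106 to 4.25, 6.10, 5.57, 3.04 and 7.75, and the brain form Ckb rose 2.19-fold. In isografts Pfkm, Eno3 and Ckm also fell, by less (-0.773, -1.32 and -0.742 on the log2 scale, adjusted p = 0.0114, 0.032 and 0.0955). Of their other forms Pfkp rose in isografts (1.08, adjusted p = 0.0231), while Eno1 and Ckb did not pass. Elongation factor Eef1a2 fell 6.48-fold and Eef1a1 rose 2.50-fold. For carnitine palmitoyltransferase the muscle form Cpt1b fell 10.4-fold and Cpt1a rose 1.44-fold (adjusted p = 0.017), the latter on 1 of 2 probesets. Glycolysis as a whole was divided, with 10 of 25 genes higher and 7 lower. The lactate exporter Slc16a3 rose 19.9-fold, from 0.445, 0.663, 0.464, 0.868 and 1.06 to 11.4, 16.1, 14.9, 10.8 and 13.4.

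In 4 of the 18 pairs the other form did not pass the test: Cox6a1, Cox8a, Ldha and Acaca, at -0.17, -0.31, 0.05 and 0.11 on the log2 scale. Beta myosin heavy chain, Myh7, which adult rat ventricle holds at low share and which stressed ventricle is known to raise, fell as well. Its brightest probeset went from 113, 154, 140.5, 104 and 104 to 37.9, 68.2, 23.7, 18.4 and 48.8 (3.44-fold, adjusted p = 7.54e-05), with the difference of graft effects at -2.70 (adjusted p = 0.000233). The pair AMP deaminase was the exception to the separation, with Ampd3 lower (-1.16) and the muscle form Ampd1 at -0.50 (adjusted p = 0.142), the latter past the threshold without graft 3, graft 5 or native heart 7 (-0.617 to -0.695). Atp2a3, the partner of Atp2a2, was lower (-0.48) and lost its call without graft 6 or native heart 4 or 7 (-0.350 to -0.456). Hexokinase 2 (Hk2), a muscle enzyme whose listed partner was not measured, was at -0.02 (adjusted p = 0.934).

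**Figure D2:**
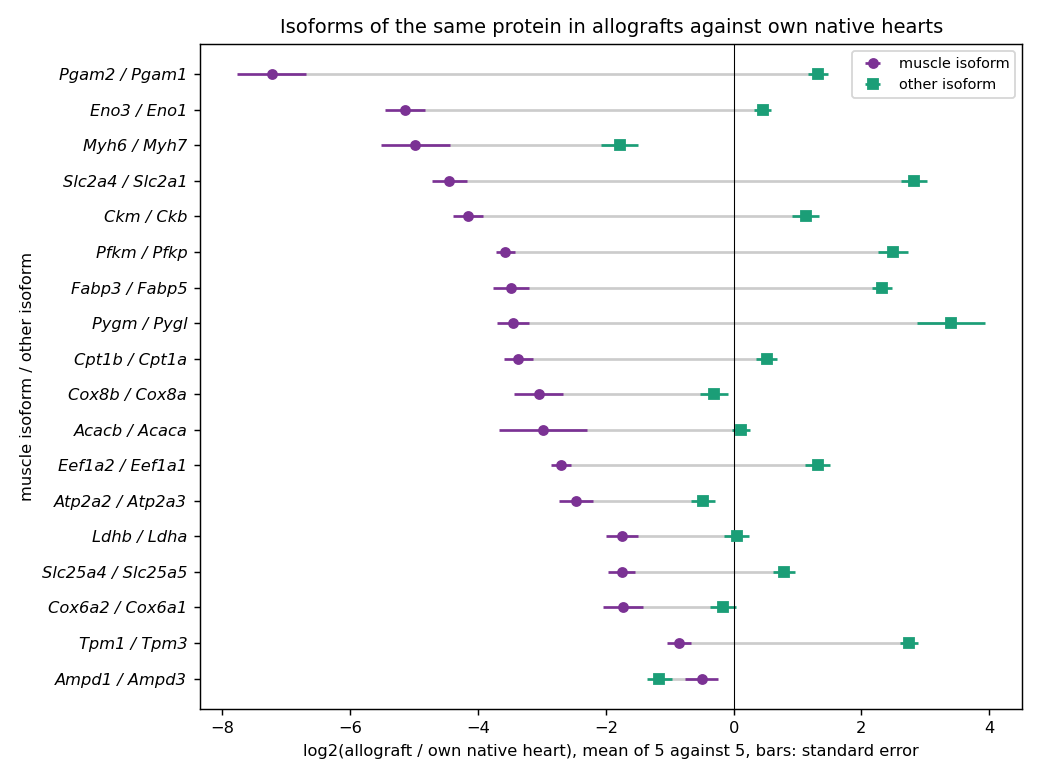
Log2 ratio of allografts to own native hearts (x axis, mean of 5 against 5 with its standard error) for the muscle isoform (circles) and the other isoform (squares) of 18 proteins (y axis). Circles lie to the left of squares in 17 of the 18 pairs, with the widest gap in phosphoglycerate mutase, and the order is turned for AMP deaminase. Ldhb, the heart form, is drawn as the muscle isoform against Ldha, and Myh6 and Myh7 are both heart myosins.

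The ribosomal protein genes held a pair of the same kind. Rpl3l, the form of ribosomal protein L3 made in heart and skeletal muscle, went from 25.4, 30.0, 20.6, 24.2 and 30.8 to 0.559, 1.36, 0.787, 0.495 and 1.67, a fall of 29.8-fold (log2 difference -4.90, SE 0.31, adjusted p = 2.28e-09). Its general counterpart Rpl3 went from 18.1, 23.1, 23.6, 19.0 and 24.5 to 87.8, 92.6, 62.0, 81.8 and 80.6, a rise of 3.73-fold. For both genes every allograft lay outside the range of the native hearts. In all, 21 of 42 ribosomal protein genes rose and 1 fell, with a median of 0.38. That count depends on the scaling, since 39 rose under quantile normalization. It also depends on single hearts and on the reference, with 12 higher without the native heart of recipient 6 and 11 against native DA hearts.

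Leukocyte transcripts rose in every allograft. Ptprc, the CD45 phosphatase common to leukocytes, read 5.19, 7.98, 5.06, 6.59 and 7.77 in the allografts and 0.822, 0.774, 0.723, 0.740 and 0.822 in the native hearts, a rise of 8.26-fold (log2 difference 3.04, SE 0.19, adjusted p = 2.09e-09). The 5 native hearts, perfused by the same blood as the grafts, lay close together and under all 5 allografts. In isografts Ptprc was also higher (1.02, adjusted p = 0.00928), with a difference of effects of 2.02 (adjusted p = 6.99e-05).

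All 17 monocyte and macrophage genes measured rose, with a median log2 difference of 4.19, an 18.2-fold rise, and all 17 were called, against 6.25% of all genes called higher, and were higher in every allograft than in every native heart. Their median per pair was 4.59, 4.64, 3.79, 4.30 and 4.15. The summed level was 512 to 832 in the allografts, 43.7 to 66.4 in the native hearts and 89.9 to 178 in the isografts, where 13 of the 17 rose. The difference of effects was higher for all 17. Cd68, a lysosomal glycoprotein of macrophages, went from 1.40, 1.36, 1.36, 1.24 and 0.450 to 46.8, 35.5, 29.6, 39.8 and 35.6, a rise of 34.4-fold (log2 difference 5.10, SE 0.30, adjusted p = 1.4e-09). Fcgr2b, an inhibitory receptor for immunoglobulin G, and Lilrb4, an inhibitory receptor of myeloid cells, were among the 10 genes that rose most, at 68.3-fold and 58.8-fold, or 30.3-fold and 26.5-fold with 0.25 array medians added to every value. Without the native heart of recipient 6, whose Fcgr2b signal was 0.0389, the Fcgr2b log2 difference was 5.44 in place of 6.09. Napsa, an aspartic protease, rose 44.2-fold, from 0.0531, 0.125, 0.132, 0.116 and 0.157 to 5.88, 5.64, 3.63, 4.27 and 5.26, or 14-fold with the constant added. It had a log2 difference of 6.57 in place of 5.47 against native DA hearts, and an isograft log2 difference of 0.02 (adjusted p = 0.973).

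Arg1 showed the largest rise of any named gene. This arginase, which turns arginine into ornithine and urea and is made by alternatively activated macrophages, stood at 50.8, 55.2, 33.9, 44.1 and 54.9 in the allografts and 0.267, 0.155, 0.405, 1.14 and 0.676 in the native hearts. The lowest allograft was far above the highest native heart, and the rise was 112-fold (log2 difference 6.81, SE 0.43, adjusted p = 2.78e-09), or 66.7-fold with 0.25 array medians added. In isografts the log2 difference was 0.52 (adjusted p = 0.539), and the difference of effects was 6.29 (adjusted p = 5.56e-06). Spp1, osteopontin, a secreted phosphoprotein of activated macrophages and remodelling tissue, went from 0.852, 1.60, 1.33, 1.88 and 1.41 to 116, 118, 64.1, 106 and 111, 73.5-fold higher, and unlike Arg1 was also higher in isografts (2.17, adjusted p = 0.00239). Olr1, a scavenger receptor for oxidised lipoprotein, read 1.07, 1.03, 2.32, 1.38 and 1.37 against native signals of 0.0653 or less, and its 72.8-fold rise became 5.94-fold with 0.25 array medians added. Olr1 was also higher in isografts (3.495, adjusted p = 0.00532), with a difference of effects of 2.69 (adjusted p = 0.0349).

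**Figure D3:**
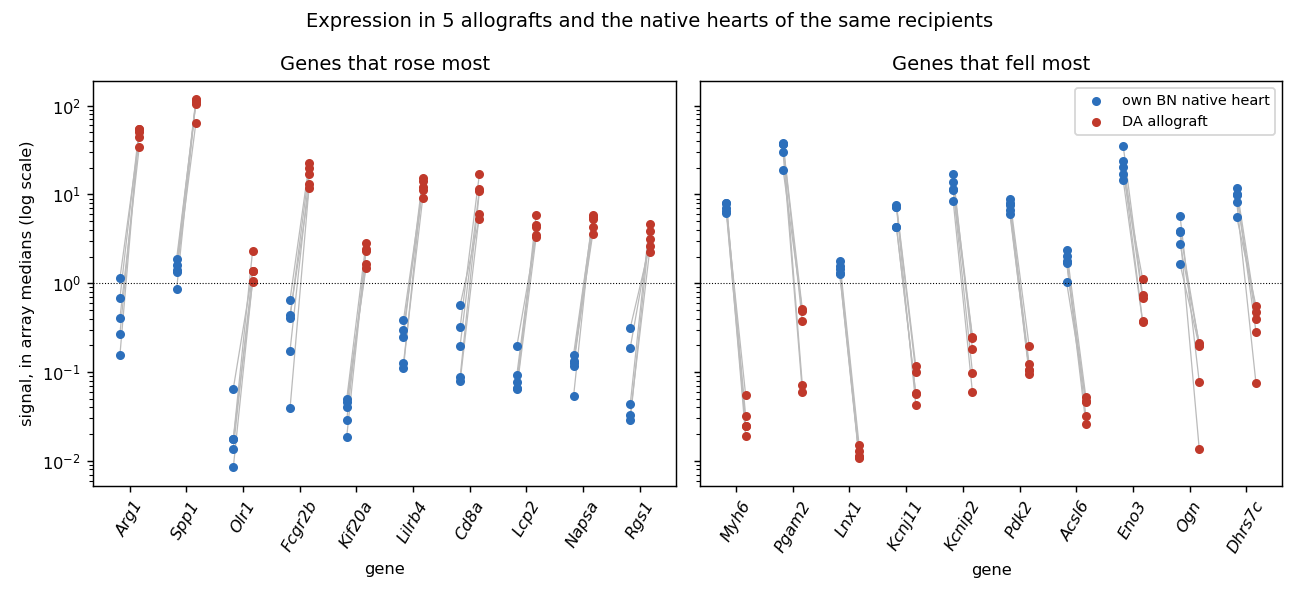
Signal in array medians (y axis, log scale) of 20 genes, 10 with the largest rise and 10 with the largest fall (x axis), with 1 point per heart and a line joining the native heart and the allograft of the same recipient, and the array median as a dotted line. The 20 genes were picked among called genes without overlap between the groups, so their separation is set by that choice. Several of the lower points lie far under the array median, where signals are weak.

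T cell genes rose too. Of 14 measured, 11 rose, none fell and 3 did not pass, with a median of 2.01, against 1 higher and 1 lower in isografts. The difference of effects was higher for 11. Summed T cell signal was 33.8 to 63.7 in the allografts and 13.3 to 16.6 in the native hearts. Cd8a, the co-receptor of T cells that read class I molecules, stood at 17.03, 10.9, 5.35, 11.4 and 6.07 in the allografts and 0.319, 0.0880, 0.568, 0.199 and 0.0788 in the native hearts, with graft 3 highest. Its rise was 48.7-fold (log2 difference 5.61, SE 0.60, adjusted p = 7.93e-07), or 20.3-fold with 0.25 array medians added. Cd3d and Cd3e, chains of the T cell receptor complex, rose 22.8-fold and 6.17-fold. The interleukin 7 receptor Il7r was below the array median in every heart, at 0.546, 0.699, 0.614, 0.668 and 0.888 in the allografts and 0.0217 or less in the native hearts, and its 68.9-fold rise is set by those weak signals. Cd4, named here after its value was seen, did not pass (log2 difference 0.40). Lcp2, an adaptor of T cell and platelet receptor signalling, rose 46.4-fold, or 12.8-fold with 0.25 array medians added. Rgs1, which dampens chemokine receptor signals in lymphocytes, rose 42.7-fold, or 9.71-fold with the constant added, and its log2 difference of 5.42 was 4.15 against native DA hearts.

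Genes of killing were divided. Of 16 cytotoxic lymphocyte genes 9 rose and 7 did not pass, with a median of 0.51. Granzyme B (Gzmb), a serine protease delivered into target cells, read 6.58, 6.57, 1.73, 3.03 and 3.88 in the allografts and 0.306, 0.392, 0.249, 0.618 and 0.447 in the native hearts, a rise of 10.1-fold (adjusted p = 0.00055). Grafts 3 and 4 stood well above grafts 5, 6 and 7, and all were above the native hearts. Perforin (Prf1), which opens the target membrane, rose 4.89-fold, and Nkg7, a granule membrane protein, 4.59-fold, from 1.12, 0.958, 0.846, 1.19 and 0.984 to 9.05, 5.45, 2.65, 3.69 and 4.48. Gzmm, a granzyme of natural killer cells, rose 6.87-fold and was also uneven, at 2.65, 1.67, 0.668, 0.216 and 0.949. In isografts no gene of this list rose and 2 fell, and the difference of effects was higher for 8 of 16. Interferon-gamma itself (Ifng), named after its value was seen, did not pass (log2 difference 0.25).

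Costimulation changed in part: of 9 genes measured 4 rose and 5 did not pass. Cd40, the receptor through which T cells license antigen-presenting cells, went from 0.136, 0.129, 0.0700, 0.108 and 0.0865 to 3.24, 2.54, 0.680, 1.74 and 1.41, a rise of 16.4-fold (adjusted p = 1.97e-07). Cd86, a ligand of CD28, rose 7.998-fold. Tnfrsf9 (4-1BB) rose 4.18-fold, carried by grafts 3 and 4 at 0.987 and 0.806 while grafts 5 and 6 lay within or near the native range. Icos, an inducible costimulatory receptor, read 0.573, 0.609, 0.661, 0.627 and 0.595 against 0.424, 0.333, 0.484, 0.184 and 0.373 on its brightest probeset. That was a rise of 1.79-fold, but at -0.08 on the log2 scale against native DA hearts. The other Icos probeset, at 1.505 against own native hearts, passed.

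Of 6 neutrophil genes 4 rose and 2 did not pass. S100a9, a subunit of calprotectin, read 3.99, 15.4, 22.6, 15.9 and 13.97 in the allografts and 1.04, 3.78, 9.88, 3.42 and 6.22 in the native hearts, so the groups overlap although the mean rose 3.27-fold (adjusted p = 0.0158). In each recipient the graft was above its own heart, and recipient 5 had the highest value and recipient 3 the lowest in both organs. Its partner S100a8 rose 3.61-fold with the same extremes. Mmp9, a gelatinase stored in neutrophil granules, rose 7.21-fold, from 0.0942, 0.164, 0.445, 0.0523 and 0.186 to 1.03, 0.960, 1.20, 1.02 and 1.07, and a second probeset rose as well. None of 10 mast cell and eosinophil genes passed, with values from -0.67 to 1.45. The B cell list had 1 measured gene, Cd79b, which did not pass at 1.10.

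Antigen presentation by class II molecules rose as a block. All 8 genes measured rose, with a median log2 difference of 3.67, a 12.8-fold rise, and all 8 were higher in every allograft than in every native heart, a separation seen upward in 18.5% of all genes. RT1-Da, the alpha chain of the rat DR molecule, went from 4.92, 5.46, 6.11, 6.43 and 5.35 to 139, 125, 74.7, 94.2 and 85.3, a rise of 17.9-fold (log2 difference 4.17, SE 0.19, adjusted p = 1.18e-10). Its beta chain RT1-Db1 rose 19.7-fold, from 2.39, 2.99, 2.63, 4.08 and 4.04 to 91.0, 77.5, 45.1, 52.9 and 54.4. RT1-Bb, a beta chain of the DQ-like molecule, rose 29.4-fold on its brightest probeset, while its other probeset, at 0.20, did not pass. RT1-DMa, which loads peptides onto class II molecules, rose 22.6-fold, and Ciita, the master regulator of the class, was at 1.01 and passed. In isografts 5 of the 8 rose, and the difference of effects was higher for all 8. Class II genes are also expressed by macrophages, whose 17 measured markers rose in the same grafts, and the part of those cells in this rise was not tested. These genes are highly polymorphic between strains, so a probeset can also read DA and BN alleles unequally.

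Class II promoters are known to share a short series of boxes upstream of the start, of which the Y box, an inverted CCAAT motif bound by NF-Y, is the easiest to recognise. Searched as CTGATTGG on both strands of the 300 bases from 250 before to 50 after the start, the motif was found in 4 of the 6 class II genes with a promoter in RefSeq (66.7%; RT1-Ba, RT1-Bb, RT1-Da and RT1-Db1), and in 1029 of 27457 genes (3.75%) overall. For the genes of the list with the largest rise that hold it, the 250 bases before the start are printed to show where the box lies, 5′ to 3′ on the strand of the gene, with the Y box in capitals. They lie at chr20:4604119-4604368 (minus strand), chr20:4515165-4515414 (plus strand) and chr20:4560163-4560412 (minus strand) of the rat assembly GRCr8, and 56, 44 and 75 bases separate the box from the start. The search letters were chosen with the results known, and a match is a description of sequence.
RT1-Bb: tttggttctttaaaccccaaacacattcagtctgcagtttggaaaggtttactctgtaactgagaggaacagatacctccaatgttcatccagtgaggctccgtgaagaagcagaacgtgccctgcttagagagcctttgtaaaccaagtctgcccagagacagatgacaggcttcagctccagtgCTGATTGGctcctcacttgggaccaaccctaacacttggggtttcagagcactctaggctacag
RT1-Da: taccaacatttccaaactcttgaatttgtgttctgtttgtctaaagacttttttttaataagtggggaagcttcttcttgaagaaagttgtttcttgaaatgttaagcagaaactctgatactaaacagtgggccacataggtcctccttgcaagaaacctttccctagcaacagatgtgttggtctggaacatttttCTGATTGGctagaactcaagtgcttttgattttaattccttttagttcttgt
RT1-Db1: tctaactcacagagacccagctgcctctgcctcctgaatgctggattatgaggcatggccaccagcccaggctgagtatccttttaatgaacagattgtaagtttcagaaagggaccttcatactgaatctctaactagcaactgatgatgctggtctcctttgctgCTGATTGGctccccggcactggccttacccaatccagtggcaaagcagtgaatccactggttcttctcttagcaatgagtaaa

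Class I molecules and the machinery that loads them rose less evenly: 16 of 21 genes rose, 1 fell and 4 did not pass, with a median of 1.23. Psmb8, a catalytic subunit of the immunoproteasome, stood at 38.2, 29.5, 15.8, 21.7 and 18.4 in the allografts and 4.35, 2.62, 3.18, 3.68 and 3.79 in the native hearts, a rise of 6.75-fold (log2 difference 2.76, SE 0.23, adjusted p = 5.09e-08). Tap1, a subunit of the peptide transporter into the endoplasmic reticulum, rose 9.24-fold, from 0.689, 0.592, 0.375, 0.718 and 0.0840 to 4.997, 4.29, 2.60, 2.84 and 3.92. RT1-A, a classical class I heavy chain, read 5.41, 4.19, 2.86, 3.08 and 1.96 against 0.244, 0.215, 0.241, 0.192 and 0.297, 14.1-fold higher, and RT1-N3 rose 7.94-fold from low signals, with a log2 difference of 2.39 in place of 2.99 without native heart 6. For RT1-A the log2 difference was 1.87 when native DA hearts were the reference in place of 3.81. By contrast, of 26 subunits of the constitutive proteasome 4 rose, 3 fell and 19 did not pass, with a median of -0.09. In isografts 2 of the 21 class I genes rose, and 12 of 21 had a higher effect in the allografts.

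Interferon-induced genes rose in 17 of 25, with 1 lower, 7 not passed and a median of 0.81. Against native DA hearts 12 rose and 3 fell, with a median of 0.51. Summed over the list, native BN hearts read 71.2 to 89.9, native DA hearts 95.3 to 122 and allografts 128 to 185 array medians. Gbp2, a guanylate-binding protein made in response to interferon-gamma, went from 3.17, 1.82, 1.44, 1.79 and 1.73 to 23.3, 17.8, 9.46, 15.7 and 17.8, a rise of 8.43-fold (log2 difference 3.08, SE 0.24, adjusted p = 2e-08). The interferon regulatory factors Irf8 and Irf1 rose 4.63-fold and 3.65-fold, and Samhd1, a nucleotide hydrolase of myeloid cells, 2.86-fold. Irf1 was above 10 array medians in all 5 allografts and under 6 in all 5 native hearts. In isografts 1 of 25 rose, and 12 had a higher and 1 a lower effect in the allografts. Interferon-inducible promoters are known to carry the repeated GAAA of the interferon-stimulated response element. Searched as 2 copies of GAAA separated by any 2 bases, on both strands of the same windows, it was in 13 of 22 interferon-induced genes (59.1%), in 9 of 18 class I and loading genes (50%) and in 1131 of 27457 genes (4.12%). Tap1 and Gbp2 are shown with the element in capitals, as it reads on the gene's strand, where it appears as the reverse complement. Their windows are chr20:4668544-4668793 (minus strand) and chr2:234005477-234005726 (plus strand), with 111 and 21 bases between element and start.
Tap1: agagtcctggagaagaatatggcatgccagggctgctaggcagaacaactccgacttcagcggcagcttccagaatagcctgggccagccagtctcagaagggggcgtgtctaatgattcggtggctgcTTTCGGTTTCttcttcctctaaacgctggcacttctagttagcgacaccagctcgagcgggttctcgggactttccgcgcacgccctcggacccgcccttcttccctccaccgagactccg
Gbp2: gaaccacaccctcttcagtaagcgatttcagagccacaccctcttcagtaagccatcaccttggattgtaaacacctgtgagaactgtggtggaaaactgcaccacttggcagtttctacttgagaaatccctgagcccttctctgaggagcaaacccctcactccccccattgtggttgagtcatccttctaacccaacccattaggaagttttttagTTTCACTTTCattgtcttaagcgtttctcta

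Chemokines and their receptors rose in 20 of 27, with 1 lower and a median of 1.86. Ccl2, which draws monocytes from blood, was even across the grafts, at 13.8, 13.4, 11.9, 12.9 and 12.8 in the allografts and 1.57, 1.45, 0.954, 1.30 and 1.47 in the native hearts, a rise of 9.74-fold (log2 difference 3.28, SE 0.21, adjusted p = 3.56e-09). The neutrophil attractant Cxcl2 rose 10.8-fold and varied more, at 0.897, 2.36, 5.25, 5.404 and 3.24, with graft 3 lowest. Xcl1, a product of activated CD8 T and natural killer cells, rose 9.94-fold with graft 3 highest, at 2.98, 0.948, 0.391, 0.771 and 0.458. The receptor Ccr1 rose 9.69-fold, and its log2 difference was 2.66 in place of 3.28 without the native heart of recipient 7. The 1 gene that fell was Cxcl12 (-2.99), a homeostatic chemokine of stromal cells, named after its value was seen. In isografts 4 rose and none fell, and 18 of 27 had a higher effect in the allografts.

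Of 26 cytokines and cytokine receptors 11 rose, 5 fell and 10 did not pass. Il6, a driver of the acute phase, read 1.58, 4.50, 8.18, 3.12 and 1.99 in the allografts and 0.0780, 0.0318, 0.322, 0.0687 and 0.0692 in the native hearts, with graft and native heart of recipient 5 highest in their groups, a rise of 39.4-fold (log2 difference 5.30, SE 0.63, adjusted p = 2.6e-06). It was among the genes with the largest difference of graft effects, 4.94 (adjusted p = 0.000982). Il1b and Il18, whose proteins are matured by the inflammasome, rose 8.58-fold and 9.49-fold as transcripts. Il1rn, the natural antagonist of interleukin 1, rose 15-fold with a wide spread, from 0.298 in graft 7 to 6.86 in graft 4. The count of 5 lower was 3 without graft 3, graft 4 or native heart 6, and also against native DA hearts.

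Adhesion molecules that stop leukocytes on endothelium rose in 5 of 9. Icam1 rose 3.80-fold, from 1.61, 1.45, 1.11, 1.21 and 1.29 to 5.79, 4.57, 4.85, 4.53 and 5.52, and the matrix receptor Cd44 rose 6.37-fold. Selp, P-selectin, rose 9.13-fold on its brightest probeset and was at -0.87, not passed, on the other. Itgb7, an integrin of homing lymphocytes, rose 2.98-fold. Genes of endothelial identity went both ways, 6 of 21 higher and 7 lower with a median of -0.05, near the shares over all genes (26.1% and 27.7%). Plvap, the diaphragm protein of fenestrated and activated vessels, rose 6.01-fold, from 0.212, 0.315, 0.300, 0.212 and 0.181 to 1.33, 1.36, 0.992, 2.10 and 1.60, and Car4, a carbonic anhydrase of capillaries, 6.04-fold, with a log2 difference of 2.59 that was 1.01 and under the 3-fold limit against native DA hearts. Fabp4, a fatty acid carrier of cardiac capillaries, fell 2.19-fold. Vwf, von Willebrand factor, fell 2.85-fold against the own BN hearts, from 4.67, 7.83, 5.83, 5.76 and 5.04 to 1.93, 2.48, 2.38, 1.42 and 2.06, but was at 0.31 against native DA hearts, whose 4 values were 1.20, 1.40, 2.59 and 1.60.

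Mural cell genes fell or did not pass. Of 13 smooth muscle and pericyte genes 8 fell and none rose, with a median of -0.68, whereas 2 rose and none fell in isografts, and 7 had a lower effect in the allografts. Rgs5, a G protein regulator that marks pericytes, went from 5.15, 6.51, 3.52, 3.74 and 5.43 to 0.611, 0.413, 1.54, 0.778 and 0.535, a fall of 6.82-fold (log2 difference -2.77, SE 0.29, adjusted p = 6.68e-07), with graft 5 the highest of the 5. Smtn, which binds actin in smooth muscle, fell 5.50-fold, from 7.17, 10.1, 4.87, 6.07 and 8.13 to 1.36, 1.30, 1.35, 1.10 and 1.31. Abcc9, the sulphonylurea receptor of vessel and heart potassium channels, fell 3.56-fold and the smooth muscle myosin Myh11 2.80-fold.

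Matrix genes varied widely between grafts. Collagens rose in 12 of 17 and fell in 1, with a median of 1.25. Their median per pair was 1.46, 0.426, 2.19, 1.52 and 0.455, and their summed level ran from 55.7 to 290 in the allografts, overlapping the native range of 45.8 to 58.5. Col1a1, the main chain of fibrillar collagen, stood at 40.02, 14.4, 61.3, 38.0 and 7.52 in the allografts and 2.66, 4.84, 4.23, 3.76 and 3.26 in the native hearts, a rise of 6.86-fold (log2 difference 2.78, SE 0.46, adjusted p = 8.93e-05). Grafts 4 and 7 were much lower than grafts 3, 5 and 6 but still above every native heart. Col1a2 rose 4.64-fold in the same order of grafts. Col5a3 rose 12.7-fold on average, with graft 5 at 6.91 and graft 7 at 0.0882, inside the native range, and its log2 difference was 2.95 without graft 5 and 4.52 without graft 7. Col18a1, the basement membrane collagen that holds endostatin, rose 3.89-fold with little spread, at 5.21, 4.92, 3.74, 4.03 and 3.87.

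In isografts, by comparison, 12 of 17 collagens rose and none fell, with a median of 2.23, and their summed level was 182 to 281. The difference of effects was lower in the allografts for 4 collagens and higher for 1. For Col1a1 it was -0.83 (adjusted p = 0.436), which misses the threshold and does not show that both graft effects were alike.

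Matricellular and repair genes rose in 9 of 15 and fell in 3. Tenascin C (Tnc), an adhesion-modulating glycoprotein of wounds, rose 36.6-fold, from 0.285, 0.112, 0.124, 0.175 and 0.0515 to 4.03, 3.18, 20.8, 5.67 and 1.56 (log2 difference 5.19, SE 0.53, adjusted p = 5.22e-07). Periostin (Postn), a secreted product of activated fibroblasts, rose 21.1-fold, from 0.428, 0.116, 0.381, 0.414 and 0.0707 to 6.81, 2.85, 24.8, 5.66 and 0.849, and its log2 difference was 3.80 without graft 5 and 5.02 without graft 7. Graft 5 was highest and graft 7 lowest for Tnc, Postn, Col1a1 and Col1a2 alike. Sparcl1, a relative of SPARC that vessels and stroma secrete, went the other way, from 19.4, 24.8, 15.2, 16.7 and 16.1 to 1.07, 0.979, 2.13, 1.10 and 1.30, a fall of 14.4-fold. In isografts Sparcl1 was at 0.55 (adjusted p = 0.152), and its difference of effects was -4.40 (adjusted p = 2.82e-07).

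Proteoglycans and microfibril proteins, which quiescent fibroblasts make in quantity, fell in 8 of 18 and rose in 1, with a median of -0.64. Here the test of the difference was lower in the allografts for 12 of 18 and higher for 2, while 4 rose and none fell in isografts. Decorin (Dcn), a collagen-binding proteoglycan, stood at 9.51, 6.83, 36.7, 10.4 and 3.40 in the allografts and 50.2, 65.3, 47.4, 39.8 and 41.4 in the native hearts, a fall of 4.97-fold (log2 difference -2.31, SE 0.41, adjusted p = 0.000211). Graft 5 came near the native range and the others lay far under it. Dermatopontin (Dpt) fell 9.52-fold, from 13.2, 13.8, 13.8, 10.1 and 13.7 to 1.90, 0.561, 3.12, 1.24 and 1.08, and Efemp1 8.57-fold, the latter with graft 4 at 0.0195, without which the log2 difference was -2.29 in place of -3.10. Osteoglycin (Ogn), a small leucine-rich proteoglycan, was among the 10 genes that fell most and read 0.0135, 0.0770, 0.195, 0.210 and 0.201 against 3.73, 5.79, 1.65, 2.79 and 3.92, 34.0-fold lower on its probeset with the largest change, 9.38-fold with 0.25 array medians added. Its log2 difference of -5.09 was -4.38 without graft 3 and -4.10 against native DA hearts. Its 3 other probesets also fell, by 2.09 to 4.6 on the log2 scale. Versican (Vcan), a large proteoglycan of provisional matrix, was the member that rose, 7.67-fold, from 0.439, 0.419, 0.934, 0.542 and 0.559 to 2.52, 2.92, 8.496, 5.99 and 3.70.

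**Figure D4:**
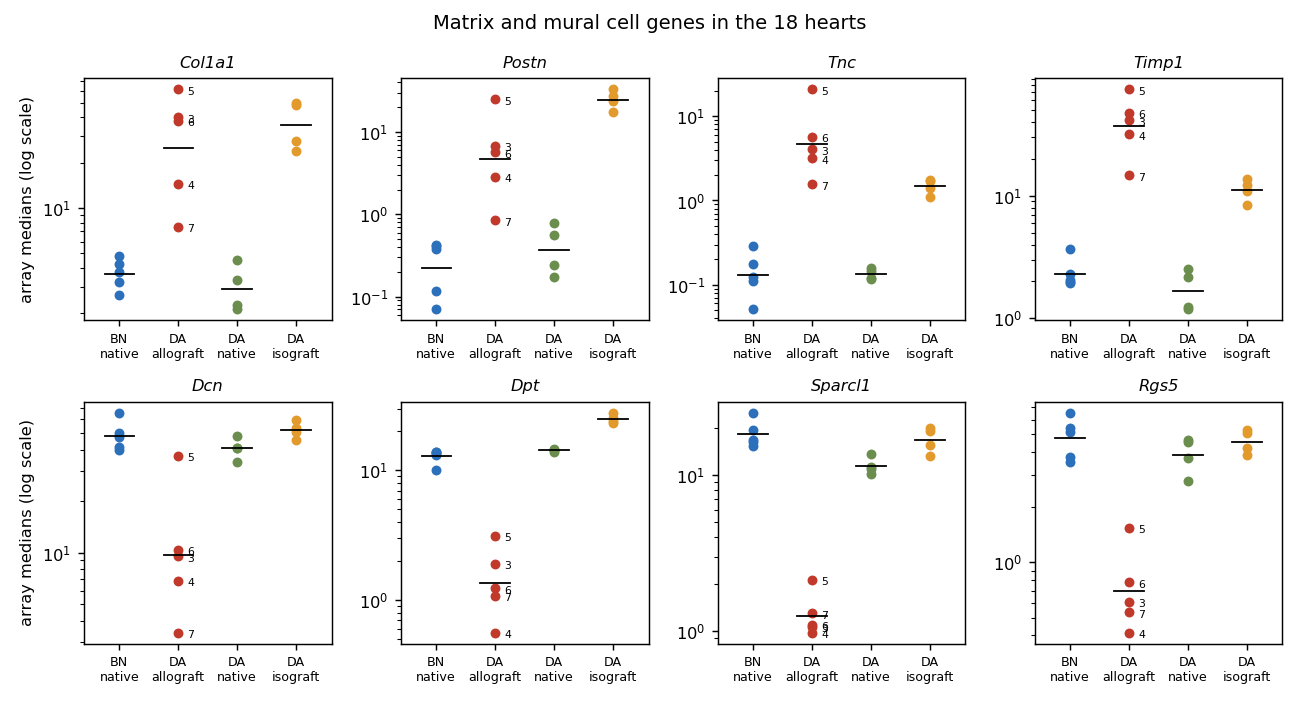
Signal in array medians (y axes, log scale) of 8 matrix and mural cell genes in 5 native BN hearts, 5 DA allografts, 4 native DA hearts and 4 DA isografts (x axis), with 1 point per heart, the geometric mean as a bar and the recipient number beside each allograft. Col1a1, Postn, Tnc and Timp1 are high in both kinds of graft with a wide spread among allografts, whereas Dcn, Dpt, Sparcl1 and Rgs5 are low in the allografts only.

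Among matrix proteases and inhibitors 9 of 17 rose and 4 fell. Mmp12, the elastase of macrophages, went from 0.508, 0.275, 0.369, 0.492 and 0.628 to 17.7, 18.8, 8.65, 11.2 and 15.3, a rise of 31.5-fold (log2 difference 4.98, SE 0.30, adjusted p = 1.57e-09). The plasminogen activator Plau rose 26.2-fold, from 0.447, 0.314, 0.570, 0.432 and 0.0981 to 10.4, 8.38, 8.11, 8.21 and 7.16. Its receptor Plaur rose 25.6-fold on the brightest probeset and was at -0.46, not passed, on the other. Timp1, an inhibitor of matrix metalloproteinases, rose 15.9-fold, from 1.94, 2.05, 3.69, 2.31 and 1.97 to 41.4, 31.8, 73.8, 47.6 and 14.7, with graft 5 highest and graft 7 lowest as for the collagens.

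Cell cycle genes rose in 30 of 32 and fell in 2, with a median of 1.51, and 26 of the 32 did not overlap between the groups, against 37.2% of all genes. Cdkn3, a phosphatase of cyclin-dependent kinases, read 3.15, 3.00, 2.32, 2.88 and 2.34 in the allografts against 0.0468, 0.120, 0.0334, 0.348 and 0.0381, a rise of 35.9-fold (log2 difference 5.16, SE 0.56, adjusted p = 1.06e-06). Mki67, the proliferation antigen Ki-67, rose 19.5-fold, from 0.359, 0.311, 0.193, 0.0771 and 0.0600 to 3.09, 2.80, 3.34, 2.81 and 3.49, and Cks2 and the replication helicase subunit Mcm6 rose 27.1-fold and 16.8-fold. All these native signals were under the array median, so the size of the folds rests on weak values. Kif20a, a kinesin of cytokinesis outside the list, rose 60.6-fold, or 8.17-fold with 0.25 array medians added. Its native signals were lower in BN than in DA hearts, and its log2 difference of 5.92 was 3.26 against native DA hearts. For Cdkn3 the log2 difference was 3.28 with that reference. In isografts 3 of 32 rose, and 25 had a higher effect in the allografts. The genes that fell were the D cyclins Ccnd2 and Ccnd3, at -0.66 and -0.39. The cell cycle homology region, searched as TTTGAA in the promoter windows, was in 12 of 27 genes of the list (44.4%) and in 5339 of 27457 genes overall (19.4%).

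Of 24 cell death genes 16 rose and 1 fell, with a median of 1.15. Ripk3, the kinase that executes necroptosis, went from 0.734, 0.662, 0.588, 0.594 and 0.371 to 6.96, 7.62, 3.87, 4.66 and 5.72, a rise of 9.72-fold (adjusted p = 3.56e-08), and its partner Ripk1 rose 8.43-fold. Bcl2a1, an antiapoptotic BCL-2 relative of leukocytes, rose 16.3-fold, and the tumour necrosis factor receptor Tnfrsf1b 13.2-fold. For Ripk3 the isograft log2 difference was -0.13 (adjusted p = 0.818) and the difference of effects 3.42 (adjusted p = 1.38e-05).

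Complement genes went both ways. The C1q chains C1qa, C1qb and C1qc, which macrophages make, rose 10.3-fold, 8.65-fold and 10.5-fold, with C1qa going from 4.45, 4.92, 5.91, 3.85 and 5.61 to 69.2, 48.3, 39.2, 54.4 and 44.6, and the anaphylatoxin receptor C5ar1 rose 8.32-fold. Across the list 8 of 16 genes rose and 6 fell, against 3 that fell when native DA hearts were the reference. Acute phase and interleukin 6 signalling genes gave 7 higher and 5 lower of 17. The transcription factor Cebpb rose 3.68-fold, from 2.71, 3.19, 3.33, 2.66 and 2.47 to 10.7, 13.6, 11.2, 9.13 and 8.62. A2m, a protease inhibitor of plasma, rose 8.79-fold, led by graft 5 at 4.94. The fibrinogen chain Fgg fell 3.38-fold, and Hpx, which binds haem, rose 2.88-fold but was at -0.44 on the log2 scale against native DA hearts. Without graft 5 or native heart 6 the number of acute phase genes that rose was 4, and without graft 7 the number that fell was 3.

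Among genes of cardiac stress 9 of 15 rose and 3 fell. Hmox1, which degrades haem, went from 1.505, 1.95, 1.20, 1.42 and 1.53 to 66.7, 62.7, 38.1, 49.8 and 42.5, a rise of 33.8-fold (log2 difference 5.08, SE 0.23, adjusted p = 1.06e-10), with an isograft difference of 1.56 (adjusted p = 0.00239). Nppa, the atrial natriuretic peptide, rose 5.93-fold, from 7.498, 14.5, 17.9, 16.3 and 8.69 to 97.5, 102, 39.9, 52.3 and 97.9, and rose in isografts as well (2.08 against 2.57 on the log2 scale, adjusted p = 0.00371), with a difference of effects of 0.49 (adjusted p = 0.536). The heat shock protein Hspa1a rose 2.60-fold. Unlike Nppa, its relative Nppb fell (-0.86), a value noted after it was seen.

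Antioxidant genes mostly fell, 17 of 29 with 9 higher and a median of -0.54. Glutathione transferase Gstm2 fell 9.12-fold, from 19.3, 23.9, 20.5, 12.5 and 18.9 to 2.35, 2.40, 1.57, 1.95 and 2.03, and extracellular superoxide dismutase Sod3 6.47-fold. Glutaredoxin (Glrx) rose 20.7-fold, from 1.34, 1.11, 0.922, 0.259 and 0.661 to 15.2, 16.8, 13.5, 16.02 and 16.2, and was at 2.67 against native DA hearts. Hypoxia-regulated genes divided evenly, 6 of 13 higher and 6 lower: Hif1a and the stress protein Ndrg1 rose 5.93-fold and 7.33-fold, and Pdk1 fell 4.69-fold. Immediate early genes rose in 10 of 18 and fell in 3, but rose in 5 against native DA hearts. Atf3 and Myc rose 10.4-fold and 6.03-fold, Fos rose 4.29-fold and Egr2 3.71-fold on their brightest probesets, and the other probesets of Fos and Egr2, at -0.41 and -0.26, did not pass.

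Besides Arg1, enzymes of arginine, nitric oxide, prostanoid and tryptophan use rose in 10 of 16, with none lower. Ass1, which rebuilds arginine from citrulline, rose 7.71-fold, from 0.785, 1.15, 0.742, 1.09 and 1.37 to 9.78, 9.22, 7.32, 6.95 and 5.93. Ptgs2, the inducible cyclooxygenase, rose 18.3-fold from very low native signals, and its log2 difference was 3.37 in place of 4.19 without native heart 4. Ido1, which degrades tryptophan and is induced by interferon-gamma, rose 4.74-fold with graft 3 highest, at 3.88, 1.34, 0.326, 1.04 and 1.29. Nos2, the inducible nitric oxide synthase, named after its value was seen, did not pass at -0.81. Of 11 genes of muscle atrophy and autophagy 6 fell and 1 rose. Trim63, a ubiquitin ligase of muscle wasting, fell 11.2-fold, from 5.14, 5.92, 5.16, 5.05 and 7.08 to 0.460, 0.708, 0.418, 0.352 and 0.650, and Fbxo32, its companion, 6.63-fold from weak signals (log2 difference -1.97 in place of -2.73 without graft 7). Map1lc3a, a marker protein of autophagosomes, fell 3.81-fold, and Capn3, a muscle calpain, 2.82-fold from signals near 0.

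Of 14 clock genes 5 fell and 3 rose, against 27.7% lower and 26.1% higher over all genes. Nr1d1 and Nr1d2, repressors in the clock loop, fell 2.89-fold and 2.52-fold, Cry2 fell 1.75-fold, and Bhlhe41 rose 3.98-fold. The hour at which hearts were taken is not given in the sources used here.

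Markers of nerve, blood, fat, epicardium and other organs were examined as well. Of 17 nerve and Schwann cell genes 4 rose and 2 fell, both under the shares over all genes (26.1% and 27.7%). Uchl1, a ubiquitin hydrolase of neurons, rose 6.91-fold and had an isograft log2 difference of 2.87 against 2.79 here. Npy, a neuropeptide of sympathetic fibres, rose 4.40-fold, from 2.23, 1.93, 2.79, 2.02 and 2.68 to 8.09, 13.96, 8.29, 10.8 and 10.6, Cnp, a myelin enzyme, rose 2.77-fold, and Sox10, a Schwann cell factor, fell 3.04-fold from weak signals. Of 5 red cell genes 1 fell and none rose, and their summed level overlapped between allografts (101 to 189) and native hearts (90.3 to 167). Of 5 platelet genes F13a1, which macrophages also make, and Pf4 rose 11.9-fold and 3.85-fold, and Ppbp fell 1.78-fold. Of 4 adipocyte genes Cfd rose 4.90-fold and Plin1 fell 1.75-fold. Among 8 epicardial and epithelial genes Cdh1 rose 7.97-fold and Epcam and Wt1 fell 1.82-fold and 1.63-fold, the Epcam call being lost without graft 5, graft 6 or native heart 5 or 7, at -0.639 to -0.766.

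In the skeletal muscle list 1 of 12 rose and 3 fell, both under the shares over all genes (26.1% and 27.7%). Myh1 was the 1 member called. It went from 41.6, 43.0, 36.5, 43.7 and 44.3 to 10.3, 9.83, 7.32, 6.36 and 11.1, a fall of 4.75-fold, and its 4 other probesets ranged from -2.24 to 1.37. The probesets of Myh1, a close relative of Myh6 and Myh7, may share sequence with them, which was not tested. Of 11 liver and pancreas genes 2 rose and 3 fell, also not above the shares over all genes. Ttr fell 3.01-fold and Ambp 3.11-fold. Cela1 rose 9.17-fold and Alb 2.75-fold, both from native signals under the array median, and the Alb call was lost without graft 6 (log2 difference 1.37) or native heart 4 (0.837).

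Since graft and native heart differed in strain, each result was set beside the native DA hearts, which match the graft in strain but come from other animals. Of the 1759 called probesets, 1522 were also called in the same direction against native DA hearts, and 237 lost the call, 1 of them with the opposite sign. For 16 the change was under 1.5-fold. Among the 6 genes named for their dependence on the reference, Myh7 on its dimmer probeset fell most against own hearts. It read 1.70, 8.59, 2.14, 2.00 and 1.58 in the allografts, 26.4, 54.5, 44.3, 20.1 and 22.7 in the own BN hearts and 3.42, 2.69, 5.95 and 2.36 in the native DA hearts, so its fall of 12.4-fold became -0.43 on the log2 scale (adjusted p = 0.496). RT1-Ba, the alpha chain of the DQ-like class II molecule, rose 11.7-fold on one probeset against own hearts but was at 0.67 against native DA hearts, which read 1.19, 1.09, 1.11 and 1.86. Its brightest probeset, used for the class II count, was higher by 2.73 on the log2 scale.

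A few more genes moved with the reference. Smim29, a small membrane protein, went from 0.197, 0.121, 0.0893, 0.168 and 0.186 to 1.61, 0.735, 1.06, 1.05 and 1.06 within BN recipients, 7.32-fold higher, and was at 0.26 against native DA hearts. Loxl1, a collagen cross-linking enzyme, rose 4.80-fold against own hearts and was at 0.10. Gja1, connexin 43 of the intercalated disc, fell 6.12-fold on one probeset and was at -0.79, with its 2 other probesets at -0.73 and -0.66. Pla2g2a, a secreted phospholipase, fell 6.16-fold, from 27.5, 34.4, 54.0, 25.4 and 30.0 to 3.78, 4.30, 12.5, 5.45 and 3.97, and was at -0.96 against native DA hearts. For these genes strain and graft status cannot be told apart. Against native DA hearts the adjusted p also missed 0.10 for Fgg (log2 -0.71), Fos (0.70), Capn3 (-1.04), Sox10 (-0.81), Plin1 (-0.36), Alb (0.76), Cpt1a (0.28), Ampd3 (-0.38) and the muscle isoform Acacb (-0.92 in place of -2.99). Among named genes that passed with both references, log2 differences nearer to 0 by over 1.5-fold against native DA hearts were those of Olr1 (5.35), Il7r (5.50), Gzmm (2.15), Mmp9 (1.67), Xcl1 (2.60), Selp (2.13), Postn (3.69), Sparcl1 (-3.17), Efemp1 (-2.40), Plau (3.73), Slc2a1 (2.19), Ptgs2 (3.52), Fbxo32 (-1.68), Cfd (1.63), Myh1 (-1.20) and the brightest Myh7 probeset (-0.83). Farther from 0 were those of Pgam2 (-7.95), Dhrs7c (-5.55), S100a9 (2.45), Tap1 (3.95), Il6 (5.98), Icam1 (2.80), Fabp4 (-1.82), the brighter Myh6 probeset (-5.72), Cks2 (5.36), Mki67 (5.41), Mcm6 (5.01), Ripk1 (3.76), Eno1 (1.33), Pygl (4.22) and Ptprc (3.64). List medians against native DA hearts were -1.91 for sarcomere, -2.61 for fatty acid oxidation, 4.35 for macrophage and 3.76 for class II genes, in place of -1.78, -2.36, 4.19 and 3.67.

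**Figure D5:**
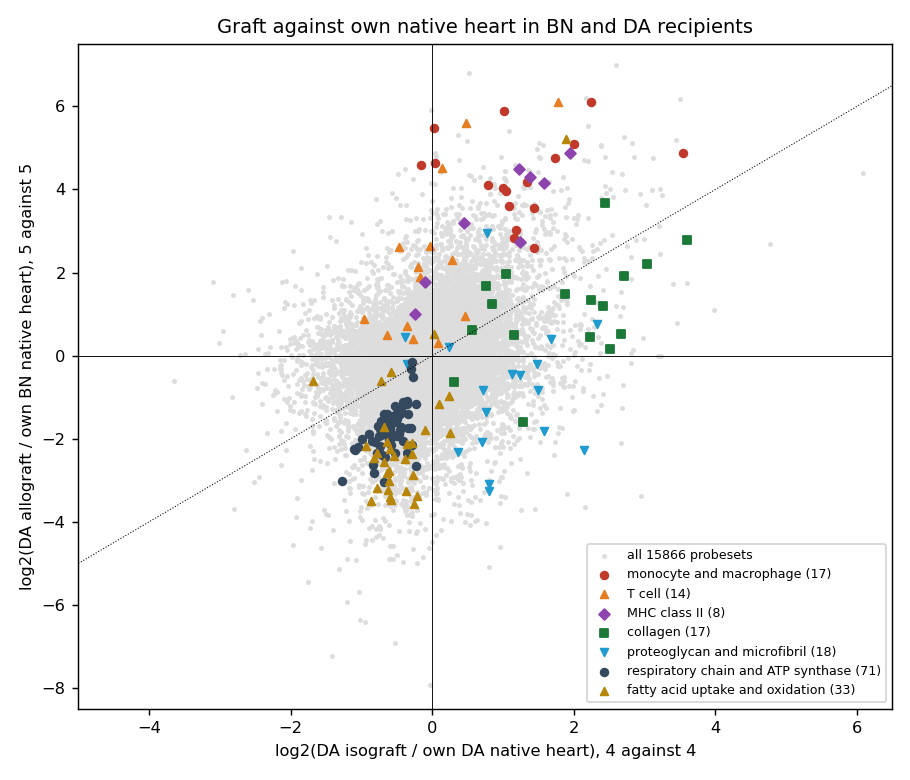
Log2 ratio of DA isografts to own DA native hearts (x axis, 4 against 4) and of DA allografts to own BN native hearts (y axis, 5 against 5) for all 15866 probesets (grey) and the genes of 7 lists (coloured, brightest probeset), with equal effects on the dotted line. Macrophage, class II and T cell genes lie above the line, respiratory chain, fatty acid and proteoglycan genes mostly below it, and collagens spread along both sides.

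The largest differences between the graft effects were mostly in genes already described, and each holds the strain difference between the native hearts, which for Kif20a was -2.66 (log2, BN over DA). On the log2 scale they were higher in the allografts by 6.29 for Arg1, 5.94 for Kif20a, 5.45 for Napsa, 5.13 for Cd8a and 4.94 for Il6. At the other end stood Myh6 on its dimmer probeset (-7.91), Lnx1 (-6.38), Ogn (-5.89), Pgam2 (-5.82) and Myh7 on its dimmer probeset (-5.79). Lnx1, a ubiquitin ligase that binds the Notch regulator Numb, read 0.0129, 0.0111, 0.0115, 0.0108 and 0.0152 in the allografts and 1.46, 1.58, 1.29, 1.27 and 1.78 in the native hearts, a 120.1-fold fall that is 6.54-fold with 0.25 array medians added. On this probeset Myh7 fell in the allografts against own BN hearts and rose in isografts against own DA hearts (2.16, adjusted p = 0.0166). Its native signals were much higher in BN than in DA hearts. Against native DA hearts the allografts did not pass the test, as given above, so its difference of effects also holds that strain gap. Dhrs7c, a short-chain dehydrogenase of the sarcoplasmic reticulum, completed the 10 genes that fell most, from 8.31, 9.89, 5.59, 10.2 and 11.9 to 0.0750, 0.399, 0.559, 0.285 and 0.471, 30.1-fold lower, or 15.8-fold with 0.25 array medians added.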

How the data were processed

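Per the labels, the deposited intensity values were produced with the MAS5 algorithm, version not given in the sources used here, and per the methods they were normalized to the median and log transformed for testing. From the deposited intensities of the 18 heart arrays, each signal was divided by the median of 15866 probesets (57 controls left out) and taken to log2. Gene symbols came from the platform annotation, updated to GRCr8 (12783 probesets with 1 symbol, 312 with several, 2771 with none). The 20 blood arrays were not used here.

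A model with a mean for each of 4 heart groups was fitted in limma 3.58.1 (R 4.3.3; lmFit, eBayes) without a recipient term. The signal criterion took the place of present calls, which were not used. Tables and figures were made with Python 3.11.15. The same steps were tested on simulated data. The number of arrays limits the precision.

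A shared number marks the graft and the native heart of one rat. As a check, their deviations from the group means correlated at -0.0623, 0.129, 0.0594, 0.0112 and 0.0720 in recipients 3 to 7, over 9623 probesets, while the highest correlations with the native heart of another recipient were 0.0384, -0.00258, 0.0705, 0.0828 and 0.0115. In recipients 3, 5 and 6 the own heart was therefore not the closest, and the pairing rests on the shared animal, not on these values. The fit with the recipient as a block is an alternative.

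Members and gene lists were chosen with earlier results of these data known. Genes are named by rule: the 10 called genes without overlap that rose or fell most, up to 4 genes per list with the largest change past the adjusted p, all isoform pairs, the 5 largest differences of graft effects each way, the 3 genes each way most dependent on the reference hearts, and markers of heart and leukocytes. Members behind counts of 5 or fewer, and a few genes marked so in the text, were named after their values were seen. Promoter windows and start sites are from RefSeq (GRCr8, an assembly of the BN strain).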

Additional observations from a re-analysis of the deposited data

Results flagged for a closer look

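Among 64 groups of 5 hearts examined, those of the 32 probesets behind the genes with the largest changes, the largest reference effects and the tissue markers, 4 held a heart whose distance to its nearest neighbour was large for the range of its group. Chance gives this in about 1 of 20 groups. Spp1 was 64.1 array medians in graft 5, under the other allografts. Napsa was 0.0531 in native heart 3, Myh7 on its dimmer probeset was 8.59 in graft 4, and Gja1 was 6.65 in native heart 4, each apart from the other hearts of its group.

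The effect of the graft differed between BN and DA recipients, by the test of the difference, for 1337 probesets. The named genes with the largest differences on the log2 scale were Arg1 (6.29), Kif20a (5.94), Napsa (5.45), Cd8a (5.13) and Il6 (4.94) on the higher side, and Myh6 (-7.91), Lnx1 (-6.38), Ogn (-5.89), Pgam2 (-5.82) and Myh7 (-5.79) on the lower side. The difference holds recipient strain, donor mismatch and the strain of the native heart at once, and these cannot be told apart.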

How the results depend on the processing

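The number of called probesets in allograft against own native heart, 1759, was 1786 with quantile normalization and 3239 at 2-fold, and ran from 1747 to 1835 with each heart left out. It was 1388 with 0.25 array medians added, 1513 with the signal criterion raised to the 65th percentile of the array, and 2278 without the signal criterion. The isograft count, 144, was 88 with 0.25 array medians added, 332 without the signal criterion, 441 at 2-fold and 112 to 162 with each heart left out. The difference of graft effects, 1337, was 1026 with 0.25 array medians added, 1770 without the signal criterion, 2705 at 2-fold and 1242 to 1411 with each heart left out. With the recipient as a block for the pairing the counts were 1759, 142 and 1337, all 1759 called probesets kept an adjusted p of at most 0.10, and among named genes the block changed the call of Pvalb only.

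Of 217 named probesets past the adjusted p, 208 kept direction and call under every setting but the native DA reference. With native DA hearts as the reference, 197 of the 223 named probesets kept both, 19 lost and 3 gained the call, and 4 changed sign: Icos (-0.0802), Vwf (0.311), Hpx (-0.441) and Hk2 (0.462). Beside the genes marked in the report, calls of Psma5 (without graft 3 or 4 or native heart 3, 5 or 6; lowest 0.364), Slc4a1 (without graft 7; -0.424), Myod1 (without graft 5 or native heart 3, 4 or 5), Actn3 (without graft 3, 5 or 6 or native heart 4; lowest 0.602) and Pvalb (without graft 3, 4 or 5 or native heart 5 or 6; -0.420 to -0.607) were lost, values being log2 differences. The Myod1 log2 difference ran from -1.30 without native heart 4 to -2.26 without native heart 7. Further list counts that moved by over 1.5 times were acute phase genes that fell, 5 against 2 with native DA hearts, and proteasome genes, 4 against 7 higher with quantile normalization and 3 against 7 lower with native DA hearts. Signals far under the array median, 5 grafts of a single time point and the joint change of strain, operation and immune attack limit what the folds can show. The causes of these moves were not tested.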
